A study of Mus musculus with 2 samples.

Results

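Endothelial cells of blood vessels were chosen by a gate on their own transcripts from single-cell RNA-seq of mouse dorsal skin. A cell was a member when Pecam1, Cdh5, Kdr, Flt1, Emcn and Plvap together gave at least 3 UMIs (unique molecular identifiers, each standing for 1 captured transcript), at least 2 of these genes were found, the lymphatic genes Mmrn1, Prox1, Ccl21a and Flt4 together gave fewer than 2 UMIs, and neither Pdgfra nor Ptprc was found. The gate took 211 of 19578 cells: 103 of 11399 in Ctrl and 108 of 8179 in AD. These are 0.904% of the kept cells in Ctrl (exact Clopper-Pearson 95% interval 0.738% to 1.09%) and 1.32% in AD (1.08% to 1.59%). The intervals here and below cover counting error alone.

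Both libraries came from female C57BL/6J mice, 7 weeks old, whose back hair had been removed with a depilatory cream 24 hours before the first application. In AD, a model of atopic dermatitis, MC903 (calcipotriol, a vitamin D analog) was given in ethanol at 4.5 nmol per application, once a day on a patch of 2 cm by 2 cm, and skin was taken on day 10. Ctrl mice received 100% ethanol alone on the same schedule. There is 1 library per condition and the number of mice behind it is not given in the sources used here, so no test of AD against Ctrl was possible, and differences between mice, between digestions and between conditions cannot be told apart.

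The endothelium lines every blood vessel and decides which leukocytes leave the blood. Arteries, capillaries and veins carry different sets of endothelial genes, and in inflamed skin the postcapillary venules are the vessels known to display selectins, on which leukocytes roll, and integrin ligands such as ICAM-1, on which they stop. Capillary endothelium handles gases, water and lipids, and arterial endothelium is shaped by Notch signals and flow.

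The vessel cells held 657470 UMIs in Ctrl, with a median of 5009 UMIs and 2136 genes per cell, and 1104173 UMIs in AD, with a median of 9323.5 UMIs and 3034 genes per cell. AD vessel cells were thus deeper than Ctrl vessel cells, whereas over all kept cells the median was 7813 UMIs in Ctrl and 6330 in AD. A level in CPM (UMIs of a gene for every 1000000 UMIs) is the sum of a gene's UMIs over the vessel cells of a library, scaled by all UMIs of those cells, so levels are set against each cell group's own depth and cells with more UMIs weigh more. No member barcode occurred in both libraries, where 35 barcodes did among all those deposited.

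The gate genes chose the cells, so their levels are a description. Pecam1, an adhesion molecule of endothelial junctions, was at 1183 CPM in Ctrl and 1366 in AD, and Cdh5, the endothelial cadherin, at 689 and 663 CPM. Flt1 was at 1316 and 1196 CPM, Emcn at 283 and 388, Plvap, which forms the diaphragms of fenestrae and caveolae, at 1066 and 1709.9, and Kdr, the main VEGF receptor, at 570.4 and 262. Of endothelial genes that the gate did not use, Cldn5 was at 321 CPM in Ctrl and 312 in AD against 0.797 and 1.36 in fibroblasts, Egfl7 at 336 and 293, and Cd93 at 855 and 505. The transcription factor Prox1, which defines lymphatic endothelium and was held down by the gate, was at 10.6 and 4.53 CPM, against 1408 and 1192 CPM in cells gated on the lymphatic genes.

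**Figure D1:**
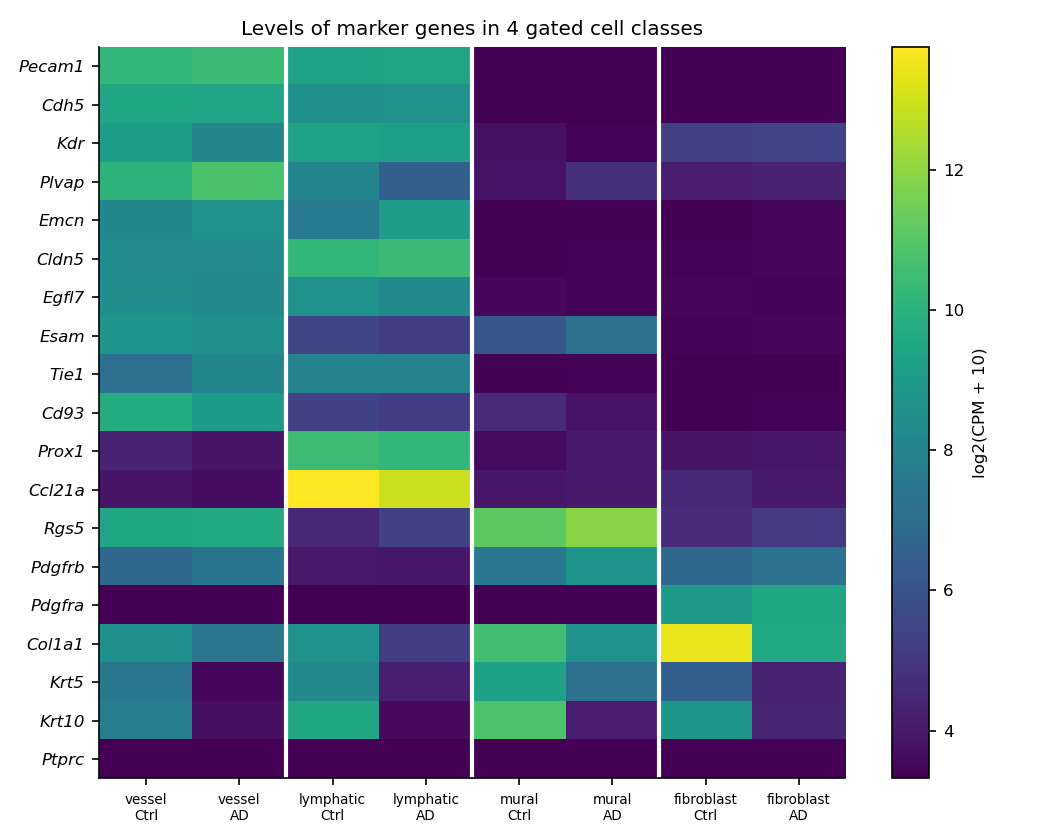
Level of 19 marker genes, as log2(CPM + 10), in vessel cells and in cells gated as lymphatic, mural and fibroblast in each library. Pecam1, Cdh5, Plvap and Cd93 were highest in vessel cells, Prox1 and Ccl21a in lymphatic cells, Rgs5 in mural cells and Pdgfra in fibroblasts. Pecam1 and Cdh5 are at 0 by their gates in mural cells and fibroblasts, and Pdgfra and Ptprc by theirs in every class where they are at 0.

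Most members stood well inside the gate, with a median of 23 UMIs of the 6 gate genes in Ctrl and 39 in AD. Just inside it lay 6 Ctrl cells and 4 AD cells with exactly 3 such UMIs, and just outside it 30 and 41 cells with 2. A second gate, built on Egfl7, Cldn5, Esam, Ecscr, Tie1 and Cd93 with the same thresholds, was passed by 82 of the 103 Ctrl members and 84 of the 108 AD members.

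The members were not all endothelial by their other genes. Clustering of the 211 cells without the gate genes gave 4 clusters. Cluster 0, with 47 Ctrl and 69 AD cells, carried 5 venous markers (Ackr1, Selp, Sele, Vwf and Lrg1) and 4 capillary markers (Gpihbp1, Cd300lg, Btnl9 and Rbp7). Cluster 1, with 34 and 12 cells, carried 6 arterial markers, among them Sema3g, Gja5 and Efnb2, but 4 of its 10 leading genes were keratinocyte genes, so it was left unnamed. Cluster 2, with 22 and 16 cells, carried endothelial genes together with genes of mural cells (the pericytes and smooth muscle around a vessel), with Rgs5 at 2498 CPM in Ctrl and 1397 in AD. Cluster 3 held 11 AD cells and no Ctrl cell, and its genes went against the label. Pecam1, Kdr, Emcn, Cldn5 and Egfl7 had no UMI in it, while Flt1 was at 731 CPM, Rgs5 at 4663 and Pdgfrb, the PDGF receptor of mural cells, at 833. These 11 cells hold 12.5% of the UMIs of the AD vessel cells. Gene lists are also given without them where a call is then lost or gained.

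Transcripts of other cell types were also unequal between the libraries. The 13 keratinocyte markers summed to 1159 CPM in Ctrl vessel cells and 47.1 in AD, led by Krt10 in Ctrl and Lgals7 in AD, and the keratins Krt16 in both libraries and Krt1 and Krt15 in AD were at 0. The 12 fibroblast markers summed to 1894 and 870.3 CPM, led by Dcn in Ctrl and Col3a1 in AD, and the 12 mural markers to 1781 and 1919, led by Rgs5 in both. Cluster 3 held 644 of the 901 UMIs of Rgs5 in AD. Without it the mural sum was 1781 CPM in Ctrl and 740.1 in AD, with 4 of 8 mural markers at 50 CPM called lower (Rgs5, Acta2, Myh11 and Abcc9) where over all members 1 was higher (Des) and none lower, and the fibroblast sum was 1894 and 384 CPM. Globin transcripts and Alas2 summed to 675 and 207 CPM. Macrophage markers gave 38.0 and 78.8 CPM, with Adgre1 and Itgam at 0 in both libraries, and T cell markers 28.9 and 6.34 CPM, with Cd3e at 0 in both. Lymphatic markers outside the gate gave 151 and 408 CPM, most of it Fgl2, which was at 86.7 and 351 CPM, and without cluster 3 the sum was 151 and 183 CPM. Markers of neutrophils and mast cells, adipocytes and muscle each summed to under 20 CPM in both libraries. The part that such transcripts play in a difference between AD and Ctrl was not tested, except where a gene is given within clusters.

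The question of the comparison was which genes of the vessel cells stood higher or lower after MC903. A gene was counted when it had at least 50 CPM in either library and called higher or lower in AD when log2((AD CPM + 10)/(Ctrl CPM + 10)), the log2 ratio used below, was at least 1 in size. Of 3955 such genes, 143 were higher in AD, which is 3.62%, and 252 were lower, which is 6.37%. The median log2 ratio over all 3955 was -0.12, and with ratios centred on it 185 genes were higher and 179 lower. The shares of 3.62% and 6.37% are the background for the counts of every gene list below. The lists were chosen with earlier results of these data known, so their counts are a description. A gene that reached 50 CPM in 1 library alone can only be higher in that library, so the filter fixed its direction. This holds for such genes in every list below. Without the 11 cells of cluster 3, 132 genes were higher and 269 lower, which are 3.36% and 6.85%, and 102 of the 143 and 212 of the 252 were called again.

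**Figure D2:**
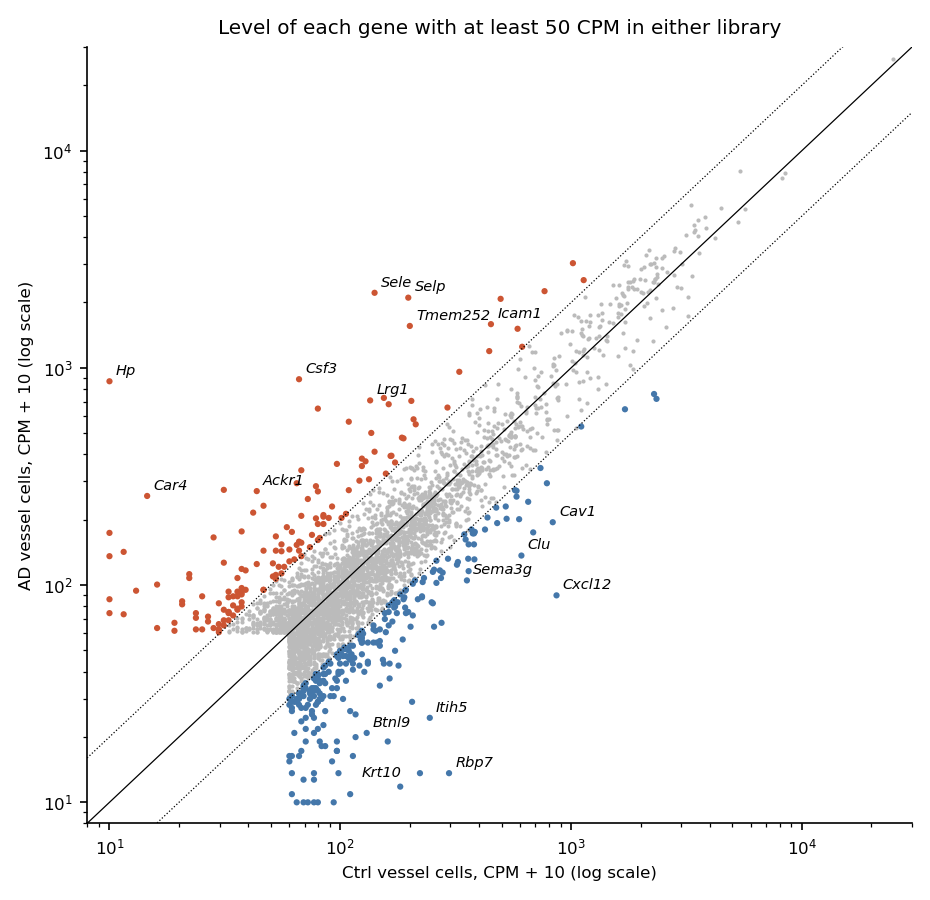
Each point is 1 of 3955 genes, with its level in Ctrl vessel cells on the x axis and in AD vessel cells on the y axis (CPM + 10, log scales). Red points are the 143 genes called higher in AD and blue points the 252 called lower, the solid line is equality and the dotted lines mark a 2-fold difference. Sele, Selp and Tmem252 stand far above the line, and Rbp7 and Cxcl12 stand far below the line.

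Venous genes stood higher in AD. Of 18 genes of venous and postcapillary endothelium, 17 reached 50 CPM, all 17 had a log2 ratio above 0, 8 were called higher and none was called lower, with a median log2 ratio of 0.99 (range 0.06 to 3.98), beside 3.62% of all genes called higher. The 8 were Sele, Selp, Tmem252, Ackr1, Lrg1, Bst1, Il1r1 and Csf2rb. Of these, Ackr1 and Bst1 were under 50 CPM in Ctrl and entered the count through AD alone, which fixed their direction. The list was chosen with earlier results of these data known, so the count describes the list and is no test of venous identity. Without cluster 3, 9 were called higher (these 8 and Mctp1) and 1 lower (Cpe).

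Sele and Selp encode E-selectin and P-selectin, which tether rolling leukocytes to the vessel wall. Sele was at 131 CPM in Ctrl (exact Poisson 95% interval 105 to 162) and at 2206 CPM in AD (2119 to 2296), which gives the log2 ratio 3.98. Selp was at 187 CPM (155 to 223) and 2095 CPM (2010.3 to 2182), which gives 3.42. The intervals of the libraries did not overlap for either gene, but they do not cover the spread among cells. The richest cell held 29.1% of the Sele UMIs in Ctrl and 13.2% in AD. For Selp it held 43.9% and 16.1%. In Ctrl, 11 of 103 cells had a UMI of Sele and the same 11 cells had a UMI of Selp, while the other 92 had neither. In AD, 42 of 108 cells had both, 5 had Selp alone, 3 had Sele alone and 58 had neither. The share of cells with a UMI of Sele was 10.7% in Ctrl and 41.7% in AD, against 0.0382% and 0.629% in fibroblasts, whose median depth was 9088.5 UMIs in Ctrl and 7116 in AD beside 5009 and 9323.5 in vessel cells. For Selp it was 10.7% and 43.5%, against 0.115% and 1.17% in fibroblasts. With each vessel cell thinned to 1000 UMIs, which left out 10 Ctrl cells and 4 AD cells, the shares for Sele were 7.53% and 35.6%, and those for Selp 8.60% and 35.6%. Per 10000 UMIs of a cell, the highest value in a single cell was 45.6 in Ctrl and 220.3 in AD for Sele and 95.4 and 182 for Selp.

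Ackr1, the atypical chemokine receptor that marks venules and carries chemokines across them, was at 33.5 CPM in Ctrl (21.0 to 50.7) and 261 in AD (232 to 293), a log2 ratio of 2.64. Ackr1 was detected in 8 Ctrl cells, 6 of which had a selectin, and in 27 AD cells, 26 of which had a selectin. Fibroblasts also carried it, at 48.6 CPM in Ctrl and 91.2 in AD. Sema3g, an arterial gene, was by contrast found in 39 Ctrl cells, none of them with a selectin, and in 20 AD cells, 1 of them with a selectin.

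The selectins were also compared within clusters at a finer resolution, as a description, since these genes helped to build the clusters. In the cluster led by Selp, Sele and Ackr1, with 4 Ctrl and 22 AD cells, Selp was at 2735 CPM in Ctrl and 5848 in AD, Sele at 1667 and 5752, and Ackr1 at 513 and 679.5, on 64, 39 and 12 UMIs in Ctrl. The cluster of 12 Ctrl and 28 AD cells carried 5 capillary markers, 3 markers of sprouting tip cells and 1 venous marker (Lrg1). In it, 1 UMI each of Selp and Sele was found in Ctrl and 693 and 948 in AD. A further cluster, of 29 and 19 cells, had Selp at 421 and 3369 CPM and Sele at 345 and 1549. The cells with mural genes, 21 and 16, had no UMI of either selectin in Ctrl and 84 of Selp and 154 of Sele in AD. The arterial-like cells, 23 and 12, had no UMI of Sele in either library, and none of Selp in Ctrl against 27 in AD, all 27 in 1 cell. Outside the arterial-like cells both selectins were thus higher in AD in each of the 4 clusters, with the smallest log2 ratio for Selp and Sele, 1.09 and 1.78, in the cluster that those genes lead. Il1r1 and Vwf had log2 ratios of -0.49 and -1.10 in that cluster, on 7 and 12 UMIs in Ctrl, and between 0.43 and 1.86 in the 3 clusters described next, while in the arterial-like cells they were at -2.01 and -0.23.

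The sequences just upstream of these 3 genes, which were all higher in AD, are shown to give the context of their start sites. They are the 250 bases before the annotated start, 5′ to 3′ on the strand of the gene, from RefSeq on build GRCm38.p6, and all 3 genes were found in that table. The deposited counts were made on mm10, the same assembly. Capitals mark TATAAA and CAGGAAG (an ETS-type motif, read as CTTCCTG on the other strand), which were chosen after the windows had been read and searched on both strands.
Sele, chr1:164047984-164048233, plus strand: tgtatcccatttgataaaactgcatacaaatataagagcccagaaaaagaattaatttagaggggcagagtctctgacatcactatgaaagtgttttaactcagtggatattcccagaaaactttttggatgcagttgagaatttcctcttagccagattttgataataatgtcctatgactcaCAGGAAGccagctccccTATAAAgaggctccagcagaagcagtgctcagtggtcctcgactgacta
Selp, chr1:164115014-164115263, plus strand: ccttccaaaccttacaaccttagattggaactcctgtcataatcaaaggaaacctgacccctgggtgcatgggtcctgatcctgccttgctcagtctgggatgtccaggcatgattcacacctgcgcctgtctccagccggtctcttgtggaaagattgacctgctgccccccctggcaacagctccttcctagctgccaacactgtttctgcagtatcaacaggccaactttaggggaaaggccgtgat
Ackr1, chr1:173333504-173333753, minus strand: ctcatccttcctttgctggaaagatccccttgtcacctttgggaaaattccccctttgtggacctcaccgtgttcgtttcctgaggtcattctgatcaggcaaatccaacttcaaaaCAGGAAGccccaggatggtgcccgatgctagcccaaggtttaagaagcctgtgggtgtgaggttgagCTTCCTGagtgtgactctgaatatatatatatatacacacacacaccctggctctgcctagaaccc
TATAAA stood 49 bases before the start of Sele and was not in the windows of Selp and Ackr1, and 13.0% of 27025 windows of this length hold it. CAGGAAG was found once for Sele, 66 bases before the start, and at 2 places for Ackr1, and 10.5% of all windows hold it. The kappaB consensus searched for, a form of the motif bound by NF-kappaB, had no match in these 3 windows and is in 7.01% of all. Sites that differ from that consensus were not counted, here or in the lists below. These matches describe letters in a window and show no binding.

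Other venous genes followed the same direction. Tmem252 was at 190.1 CPM in Ctrl and 1549.6 in AD, and was found in 37 of 103 and 92 of 108 cells. Lrg1, a secreted leucine-rich glycoprotein, was at 125 and 698 CPM, and Il1r1, the signalling receptor for interleukin 1, at 68.4 and 275. The log2 ratio of Il1r1, 1.86 over all members, was 1.38 without cluster 3. Csf2rb, the shared chain of the receptors for IL-3, IL-5 and GM-CSF, was at 131 and 401 CPM, and Bst1, a cell-surface enzyme, at 10.6 and 71.5. Nr2f2, the transcription factor that sets venous identity, was at 154 and 306 CPM, a log2 ratio of 0.95, and Vwf, the clotting factor stored beside P-selectin, at 189 and 268, a log2 ratio of 0.49, both under the threshold.

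**Figure D3:**
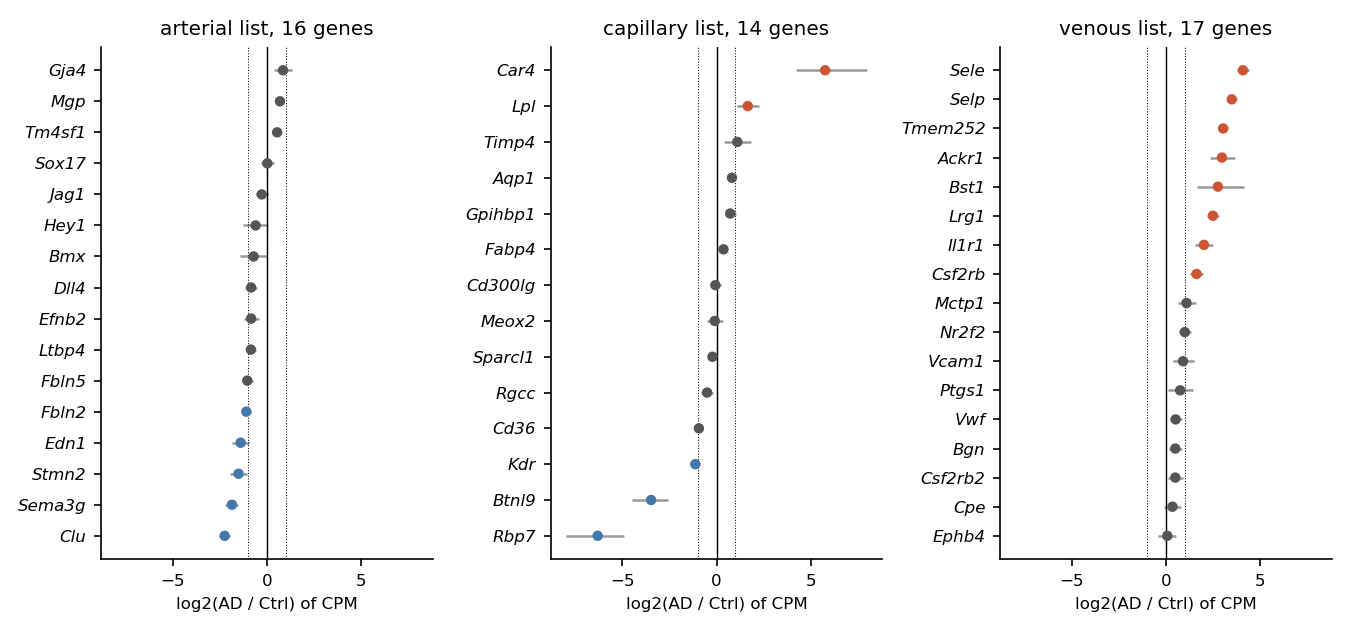
Log2 ratio of raw CPM, AD over Ctrl, for the genes of the arterial, capillary and venous lists that reached 50 CPM in either library. Points are ratios, bars are exact conditional binomial 95% intervals (counting error alone, cut at 8 on either side), and colour marks genes called higher (red) or lower (blue) after 10 CPM was added. Venous genes lie right of 0, 12 of 16 arterial genes lie left of it, and capillary genes lie on both sides, from Rbp7 to Car4.

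Capillary genes split into both directions. Of 18, 14 reached 50 CPM, 2 were called higher (Car4 and Lpl) and 3 lower (Rbp7, Btnl9 and Kdr, the last of them a gate gene), with a median log2 ratio of -0.07, close to that of all genes. Without Kdr, 2 of 13 were higher and 2 lower, with a median of -0.05. Car4 reached 50 CPM in AD alone, and Rbp7 and Btnl9 in Ctrl alone, so the filter fixed the direction of these calls. Rbp7, an intracellular retinol-binding protein of capillary endothelium, was at 286 CPM in Ctrl (247 to 329.9) and 3.62 in AD (0.987 to 9.28), the lowest ratio of any gene with at least 100 CPM in either library. Its 188 UMIs in Ctrl came from 41 cells, and the 4 UMIs in AD from 4 cells. Btnl9, of the butyrophilin family, was at 120.2 and 10.9 CPM. Car4, a carbonic anhydrase on the surface of capillaries, went the other way, with 3 UMIs in Ctrl and 273 in AD, which are 4.56 CPM (0.941 to 13.3) and 247 CPM (219 to 278). It was found in 3 Ctrl cells and 39 AD cells. Cd36, the fatty acid translocase, was at 768 and 402 CPM, Gpihbp1, which holds lipoprotein lipase on capillaries, at 199 and 329.7, and Aqp1, a water channel, at 472 and 831, none past the threshold. Fabp4, a fatty acid carrier, was at 3813 and 4929 CPM. So Rbp7 stood high in Ctrl and near 0 in AD, Car4 the reverse, and 9 of the 14 capillary genes stayed under the threshold. Cluster 0 carries 4 capillary and 5 venous markers. In it alone, 1 capillary gene was called higher (Car4) and 6 lower (Cd36, Rbp7, Aqp7, Btnl9, Sparcl1 and again Kdr), with a median of -0.62, beside 4.44% of genes called higher and 8.79% lower in that cluster. The part that its mix of capillary and venous cells plays in this was not tested. Without cluster 3, Timp4 was also called higher and Kdr was no longer called lower.

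Arterial genes leaned lower. Of 20, 16 reached 50 CPM, 5 were called lower (Clu, Sema3g, Stmn2, Edn1 and Fbln2) and none higher, with a median log2 ratio of -0.79, beside 6.37% of all genes called lower. Clu, the chaperone clusterin, was at 599 CPM in Ctrl (542 to 661) and 127 in AD (107 to 149.6). Sema3g, a secreted semaphorin, was at 344 (300.4 to 392) and 95.1 CPM (77.8 to 115). Edn1, the vasoconstrictor endothelin 1, was at 181 and 68.8 CPM. The Notch ligand Dll4, at 248 and 139 CPM, and the arterial ephrin Efnb2, at 173 and 96.9, had log2 ratios of -0.80 and -0.78. Gja4, a connexin, stood at 80.6 and 146 CPM, and its log2 ratio of 0.78 became -0.35 without cluster 3.

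Without cluster 3 the list had 4 genes called lower, Fbln2 being lost, and a median of -0.61. At a finer resolution the cells with arterial genes formed 1 arterial-like cluster of 23 Ctrl and 12 AD cells, with 7 of 8 arterial markers and 3 of them among its 10 leading genes, and the 14 cells with keratinocyte genes, all from Ctrl, formed another. Sizes of clusters are not compared, since genes that differ between the libraries also built them. Within the arterial-like cells Sema3g was at 1155 CPM in Ctrl and 877 in AD, and Fbln5, an elastic fibre protein, at 1072 and 1286, both log2 ratios under the threshold. Clu and Edn1 remained lower there, at 1374 against 565 CPM and 604 against 117 CPM, on 182 and 58 UMIs of Clu and 80 and 12 UMIs of Edn1. Stmn2 was at 566 and 429 CPM there, under the threshold, and Gja4 and Gja5, the arterial connexins, were at 189 and 273 and at 30.2 and 87.7, the last pair on 4 and 9 UMIs. Outside these cells, Edn1 was higher in AD in the cluster of 29 and 19 cells, at 42.1 and 293 CPM on 5 and 25 UMIs. In the cluster of 12 and 28 cells it was lower, at 57.3 and 23.1 CPM on 7 and 9 UMIs. Sema3g was at 282 and 27.8 CPM in the cells with mural genes.

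**Figure D4:**
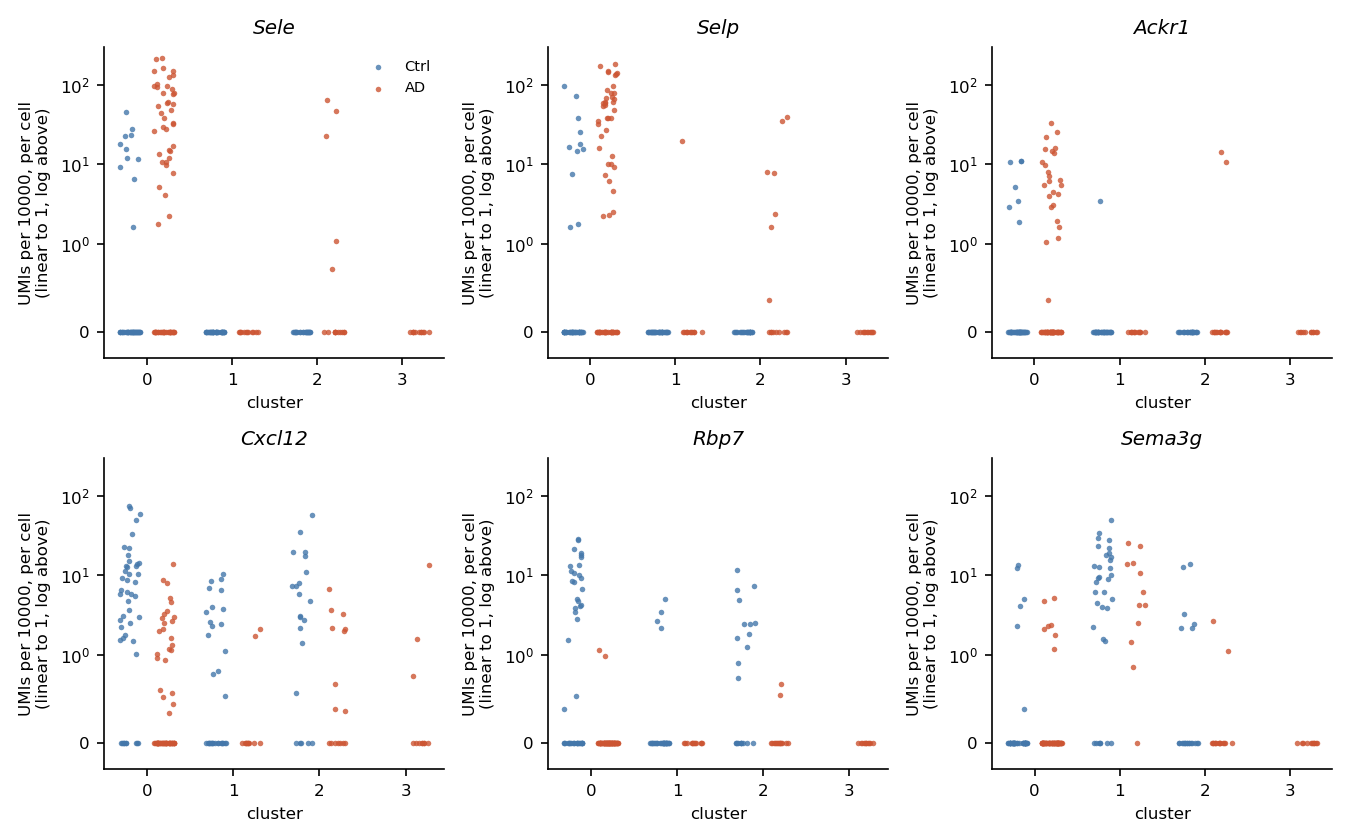
UMIs per 10000 in every vessel cell (linear up to 1, log above) for 6 genes, by cluster, with Ctrl cells in blue and AD cells in red. Sele, Selp and Ackr1 were found mainly in cluster 0 and Sema3g mainly in cluster 1, while Cxcl12 and Rbp7 were found in Ctrl cells of clusters 0, 1 and 2 and at fewer UMIs, or not at all, in AD cells of the same clusters.

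Chemokines and cytokines differed in both directions. Of 36 genes, 14 reached 50 CPM, 8 were called higher (Csf3, Ackr1, Cxcl2, Cxcl9, Cxcl1, Ccl11, Cxcl10 and Csf1) and 1 lower (Cxcl12), with a median log2 ratio of 1.37, beside 3.62% of all genes called higher and 6.37% lower. Ackr1, Cxcl2, Cxcl9, Cxcl10 and Csf1 were under 50 CPM in Ctrl, so they entered the count through AD alone. Their direction was fixed by that filter, and the count of 8 and the median rest in part on them. Without cluster 3, Ccl11 no longer reached 50 CPM and the other 8 calls stood. Csf3, the neutrophil growth factor G-CSF, was at 56.3 CPM in Ctrl (39.6 to 77.6) and 877 in AD (822 to 934), in 11 and 45 cells. The neutrophil chemokines Cxcl1 and Cxcl2 were at 318 and 18.3 CPM in Ctrl and 949 and 156 in AD. Cxcl9 and Cxcl10, which draw T cells through CXCR3, were low in both libraries, at 10.6 and 27.4 CPM in Ctrl and 74.3 and 86.9 in AD, and without the AD and Ctrl cells with the most UMIs of each, the log2 ratio of Cxcl10 was 0.95, under the threshold. Csf1, the macrophage growth factor, was at 45.6 and 133 CPM, and Il6 at 649 and 1249.8, the latter under the threshold. Ccl2, the monocyte chemokine, was at 41.1 and 44.4 CPM in vessel cells, too low to be counted, while it was at 445 and 1842 CPM in fibroblasts.

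Cxcl12, the ligand of CXCR4 that retains leukocytes and guides vessel growth, was at 855 CPM in Ctrl (786 to 928) and 79.7 in AD (63.9 to 98.2), with log2 ratio -3.27. A UMI of Cxcl12 was present in 68.0% of vessel cells in Ctrl and 36.1% in AD, and in 55.5% and 69.4% of fibroblasts, which make it too. After thinning to 1000 UMIs the shares were 36.6% and 12.5%. The lower level was seen in each of the 3 clusters with cells of both libraries, with 1369 and 64.4 CPM in cluster 0, 231 and 29.2 in cluster 1, and 783 and 117 in cluster 2. Fibroblasts of the same libraries had 361 CPM in Ctrl and 620.3 in AD, so the 2 cell classes differed in direction.

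Among 25 adhesion genes, 24 were in the table, 17 reached 50 CPM, 3 were called higher and 2 lower, with a median log2 ratio of -0.16. Beside the selectins, Icam1, the integrin ligand that arrests leukocytes, was higher, at 439.6 CPM in Ctrl (390.3 to 493) and 1579 in AD (1506 to 1655). It was higher in AD within cluster 0 (409 and 2004 CPM), cluster 1 (568 and 1345) and cluster 2 (334 and 1163). In the arterial-like cells, where the Ctrl cells with keratinocyte genes are left out, it was at 801 and 1345 CPM, a log2 ratio of 0.74, under the threshold. Vcam1, the ligand of VLA-4, was at 57.8 and 108 CPM, under the threshold, and 97 of its 119 AD UMIs came from the 12 AD cells of cluster 1. In the arterial-like cells it was at 211 and 945 CPM, a log2 ratio of 2.11. However, 1 AD cell held 52 of the 119 UMIs. Over all members the log2 ratio was 0.80, and 0.28 without the cell with the most UMIs of it. Podxl, an anti-adhesive sialomucin, at 642 and 232 CPM, and Icam2, at 114 and 48.9, were the 2 called lower. Icam2 reached 50 CPM in Ctrl alone, which fixed its direction. Without cluster 3, Icam2 was no longer called and Jam3 and Cd44 were called lower. No UMI of Glycam1, the mucin of high endothelial venules, was found, and Madcam1 was at 0 and 9.06 CPM.

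Targets and parts of the NF-kappaB pathway, which turns inflammatory signals into adhesion molecules and chemokines, leaned higher. Of 28, 22 reached 50 CPM, 9 were called higher (Sele, Lcn2, Icam1, Sod2, Cxcl1, Tnip1, Csf1, Ier3 and Ch25h) and none lower, with a median log2 ratio of 0.78, beside 3.62% of all genes called higher and 6.37% lower. Several of these stand in the lists above as well. At least Csf1 and Lcn2 reached 50 CPM in AD alone, which fixed their direction. The feedback inhibitors Nfkbia, at 3314 and 5612 CPM, and Tnfaip3, at 254 and 437, had log2 ratios of 0.76 and 0.76, whereas the subunits Nfkb1, Rel and Rela had log2 ratios between -0.22 and -0.11. The kappaB consensus was in the 250-base windows of 11 of the 22 genes of this list that were in the RefSeq table, in none of 12 venous genes and in 2 of 15 arterial genes.

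Receptors and the JAK-STAT pathway carry the signals of cytokines such as IL-4 and IL-13. Of 38 genes, 24 reached 50 CPM, 2 were called higher (Il1r1 and Csf2rb) and none lower, and 19 had a log2 ratio above 0. The median log2 ratio was 0.44, beside -0.12 over all genes, of which 3.62% were called higher and 6.37% lower. Il4ra, the shared receptor chain for IL-4 and IL-13, was at 152 and 233 CPM, Il13ra1 at 57.8 and 101, Jak1 at 426 and 499.9, and Stat6 at 50.2 and 31.7. Socs3, a feedback inhibitor of STAT3 signals, was at 686 and 1176 CPM in vessel cells, a log2 ratio of 0.77, beside 2.40 in fibroblasts.

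Genes of VEGF, Notch, Tie and guidance signalling leaned lower. Of 42, 32 reached 50 CPM, 1 was called higher (Angpt2) and 6 lower (Pgf, Sema3g, Plxnd1, Nrp1, Jag2 and Kdr). With the gate genes Kdr and Flt1 left out, 1 of 30 was higher and 5 were lower, with a median log2 ratio of -0.31, beside 3.62% of all genes called higher and 6.37% lower. Nrp1, the VEGF coreceptor neuropilin 1, was at 516 CPM in Ctrl and 192 in AD, and its partner Plxnd1, a semaphorin receptor, at 239 and 73.4. Pgf, the placental growth factor, was at 66.9 and 3.62 CPM. Tie1, an orphan receptor of the angiopoietin system, was at 129 and 264 CPM, a log2 ratio of 0.98, and its relative Tek at 138 and 86.0, a log2 ratio of -0.63. Angpt2, the ligand that destabilises vessels, was at 56.3 and 149 CPM, and its log2 ratio of 1.26 was 0.58 without those cells. Of 30 genes of sprouting and tip cells, 22 reached 50 CPM, 2 were called higher (Igfbp3 and Angpt2) and 6 lower (Pgf, Esm1, Lamb1, Pdgfb, Fscn1 and Lama4). The median of this list was 0.16 over all members and -0.17 without cluster 3, where Angpt2 and Pdgfb lost their call. In the signalling list Kdr lost its call without cluster 3 and Tie1 was called higher. Esm1, a secreted proteoglycan typical of tip cells, was at 76.0 and 8.15 CPM. Esm1 and Pgf reached 50 CPM in Ctrl alone, which fixed their lower direction in these lists.

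Of 28 genes of junctions and caveolae, 24 reached 50 CPM, 7 were called lower (Cav1, Cavin2, Cgnl1, Jup, Cav2, Cavin1 and Cdh13) and none higher, with a median log2 ratio of -0.29, beside 6.37% of all genes called lower and 3.62% higher. With the gate genes Cdh5 and Plvap left out it was 7 of 22, with a median of -0.36. Without cluster 3, Cdh13 lost its call and Gja1 was called higher. Caveolae are flask-shaped pits of the endothelial membrane, coated by caveolins and cavins. Cav1 was at 823 CPM in Ctrl (755 to 895) and 185 in AD (160.3 to 212), and Cavin2 at 675 (614 to 741) and 165 (142 to 191). Cav2 was at 268 and 104 CPM and Cavin1 at 727 and 336, while Cavin3, at 269 and 289.8, was not called. In the arterial-like cells, Cavin2 was at 936 and 799 CPM, in cluster 0 at 652 and 116, and in cluster 2 at 645 and 100.2. Cav1 was at 770.3 and 370.2, 971 and 183, and 898 and 167 CPM in the same 3 sets of cells. Cav1 was past the threshold in all 3 and Cavin2 in clusters 0 and 2, and the difference between these sets was not tested. Cdh5, Cldn5 and Esam, components of adherens and tight junctions, had log2 ratios of -0.05, -0.04 and -0.24.

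Genes common to endothelium, 30 in all and each above 50 CPM, gave 1 called higher (Gpr182, an atypical chemokine receptor) and 5 lower (Cav1, Podxl, Adgrl4, Icam2 and Ptprb), with a median log2 ratio of -0.24. Ptprb, the phosphatase that restrains Tie2, was at 1097 and 527 CPM and Adgrl4, an adhesion receptor, at 468 and 183. Without cluster 3, Icam2 and Ptprb lost their call and Tie1 was called higher. The other 24 genes stayed under the threshold over all members, among them the transcription factors Erg (157 and 120.5 CPM), Sox18 (222 and 184) and Sox17 (190.1 and 193).

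Vascular tone and coagulation genes gave 20 of 36 at 50 CPM, with 2 called higher (Nt5e and Ednrb) and 1 lower (Edn1). Nt5e, the ectoenzyme CD73 that makes adenosine, was at 27.4 and 167 CPM, with a log2 ratio of 1.87 within cluster 0. Nt5e entered the count through AD alone, which fixed its direction. Ednrb, an endothelin receptor, was at 202 and 539.8 CPM over all members, but within cluster 0 at 90.6 and 38.0, and in the 11 cells of cluster 3 at 3425, and without those cells it was not called, while Entpd1 was called higher and Plat lower. Nos3, the endothelial nitric oxide synthase, was at 91.3 and 107 CPM, and the flow-responsive factors Klf2 and Klf4 had log2 ratios of -0.25 and -0.45. Of 26 lipid handling genes, 14 reached 50 CPM, 2 were called higher (Lpl and Pnpla2) and 3 lower (Rbp7, Cav1 and Angptl4), with a median of -0.61. Rbp7 reached 50 CPM in Ctrl alone, which fixed its direction. In cluster 0 alone 1 of 15 was called higher (Pnpla2) and 9 lower, with a median of -1.29, beside 4.44% of genes called higher and 8.79% lower in that cluster. Among the 9 were Cd36, the fatty acid carrier Fabp5, the receptor Pparg and the lipid droplet protein Plin2. Cluster 0 mixes capillary and venous markers, and the part of that mix was not tested. Without clusters 2 and 3 none was higher and 5 of 13 were lower, where 142 of all counted genes were higher and 318 lower.

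Interferon-induced genes had no common direction. Of 40, 25 reached 50 CPM, 9 of them with a log2 ratio above 0, 4 were called higher (Ifitm1, Cxcl9, Cxcl10 and Ifitm2) and 1 lower (Ifi27l2a), with a median log2 ratio of -0.30. Cxcl9 and Cxcl10 reached 50 CPM in AD alone, which fixed their direction. The log2 ratio of Ifitm1 was 2.38 over all members and 0.76 without cluster 3. None of the 19 MHC class I genes that reached 50 CPM was called, and B2m was at 1516 and 1608 CPM. Of 7 MHC class II genes, 2 reached 50 CPM, Cd74 at 86.7 CPM in Ctrl and 7.25 in AD and H2-Ab1 at 51.7 and 3.62, on 57 and 34 UMIs in Ctrl, with the pan-leukocyte gene Ptprc at 0 by the gate. Both reached 50 CPM in Ctrl alone, so the filter fixed their lower direction in AD. In the cells that passed both gates, and in cluster 0 alone, neither gene reached 50 CPM.

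Of 27 immediate-early and heat shock genes, which respond to handling and digestion of tissue as well as to stimuli in the animal, 26 reached 50 CPM, 1 was called higher (Ier3) and 5 lower (Hspa1b, Hspa1a, Egr1, Hsph1 and Nr4a1). Hspa1a was at 2278 and 748 CPM and Egr1 at 1702 and 635, while Fos was at 2184 and 1686. The metallothioneins Mt1 and Mt2, which bind zinc, were the 2 called higher among 15 stress and metabolism genes that reached 50 CPM, at 757 and 432 CPM in Ctrl and 2245 and 1185 in AD. They were also higher in fibroblasts, where Mt1 was at 1197 and 10218 CPM. Of 25 basement membrane genes at 50 CPM, Lox, the collagen cross-linking enzyme, was called higher and Fn1, Lamb1 and Lama4 lower, and the call of Lox was lost without cluster 3. Col4a1 was at 1018 and 1734 CPM and Fn1, fibronectin, at 349.8 and 106. Of 24 cell cycle genes in the table, 6 reached 50 CPM, Mki67 was at 36.5 and 16.3 CPM and Ccnd1, a cyclin, was called lower, at 265 and 57.1 CPM. None of 8 vitamin D pathway genes reached 50 CPM, although MC903 acts on the vitamin D receptor. Vdr was at 10.6 and 18.1 CPM, and Cyp24a1, the classical target, had no UMI in Ctrl and 24 in AD.

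Among the 2083 genes outside the gate with at least 100 CPM in either library, the 5 with the highest log2 ratio were Hp, Car4, Spp1, Sele and Cfd and those with the lowest included Rbp7, Krt10, Krt5 and Itih5. Sele, Car4, Rbp7 and Itih5 were spread over many cells, whereas Hp, Spp1, Cfd, Krt10 and Krt5 had most of their UMIs in 1 cell each. Hp, the haemoglobin scavenger haptoglobin, had no UMI in Ctrl and 858 CPM in AD, at least 188-fold higher against 3 counts in the Ctrl library, but 563 of its 947 UMIs lay in cluster 3 and 375 in cluster 2, and 1 cell held 50.6% of them. Mural cells gated without Pecam1 and Cdh5 had no UMI of Hp in Ctrl and 3842 CPM in AD. Spp1, osteopontin, had 181 UMIs in 4 AD cells, and Cfd, complement factor D, had 93.5% of its 139 UMIs in 1 AD cell. Krt10 and Krt5, keratins of the epidermis, had 77.7% and 60.2% of their Ctrl UMIs in 1 cell each. Itih5, a hyaluronan-binding matrix protein, was at 234 CPM in 48 Ctrl cells and 14.5 in 12 AD cells, and it was lower in fibroblasts as well (569 and 70.4 CPM).

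A gene was taken as enriched in vessel cells when its level in vessel cells was at least 2 times that in all other kept cells of the library where it was higher, which held for 584 of the 2083. The 12 of these with the highest ratios were Car4, Spp1, Sele, Csf3, Sectm1b, Selp, Tmem252, Ackr1, Lrg1, Ifitm1, Ehd3 and Nt5e. Of these, Spp1 had 172 of its 181 AD UMIs and Ifitm1 444 of its 613 in cluster 3, whose genes went against the endothelial label. Sectm1b, a secreted and membrane protein, had 1 UMI in Ctrl and 146 in AD, in 27 cells, which are 1.52 CPM (0.0385 to 8.47) and 132 CPM (112 to 155). Ehd3, of a family that shapes endocytic membranes, was at 36.5 and 222 CPM. The 12 with the lowest were Rbp7, Cxcl12, Btnl9, Ccn2, Clu, Cav1, Gask1b, Rflnb, Cavin2, Etl4, Sema3g and Smco4, with log2 ratios from -4.44 to -1.67. Ccn2, a matricellular growth factor, was at 106 and 15.4 CPM, on 70 and 17 UMIs. Gask1b was at 169 and 32.6 CPM, Rflnb, a partner of filamin, at 245 and 54.3, Etl4 at 163 and 39.8, and Smco4 at 117 and 29.9.

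**Figure D5:**
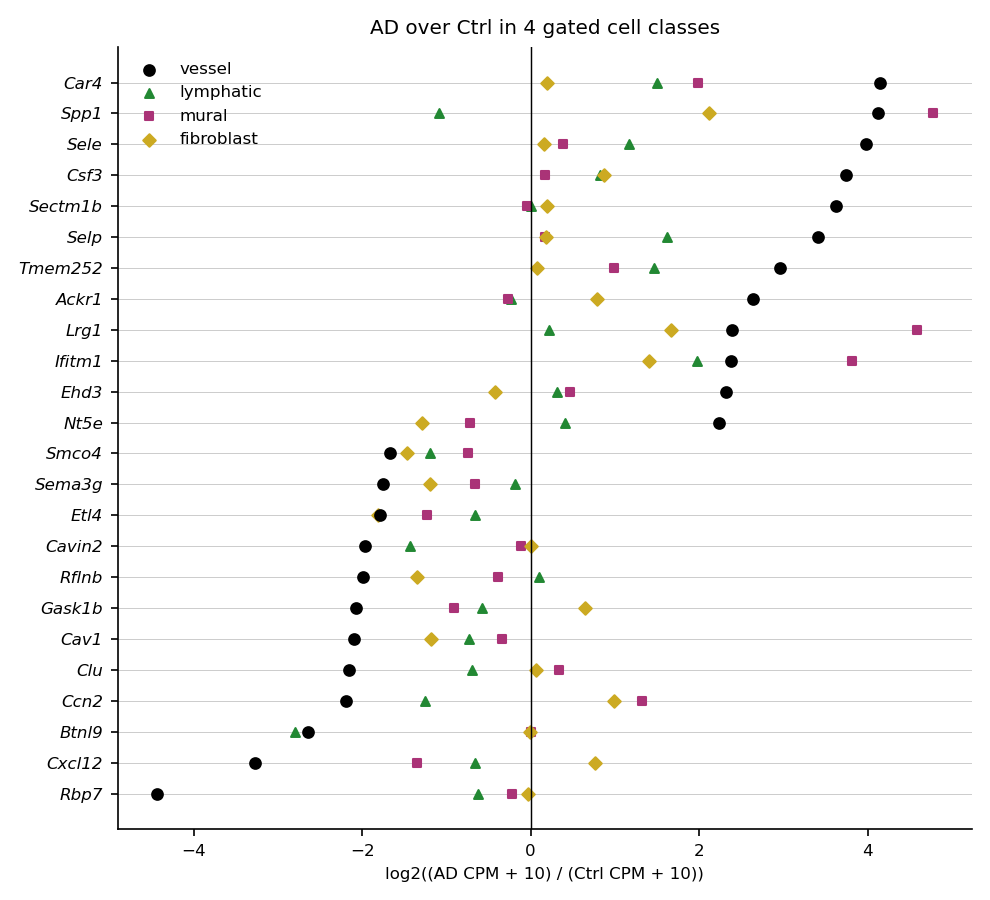
Log2 ratio of AD over Ctrl (10 CPM added) of the 12 highest and 12 lowest genes enriched in vessel cells, in vessel cells (circles), lymphatic cells (triangles), mural cells (squares) and fibroblasts (diamonds). The genes were ranked on the circles. Sele, Selp and Csf3 lie above 3 in vessel cells and below 2 in the other classes, while Spp1, Lrg1 and Ifitm1 lie higher in mural cells than in vessel cells.

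These genes were chosen for their ratio in vessel cells, so values in other classes are set beside them as a description. In lymphatic cells, Sele was at 23.1 CPM in Ctrl and 64.3 in AD and Selp at 8.80 and 47.7, each below the vessel cells of the same library. Lymphatic cells shared some of the differences, with Btnl9 at 241 and 26.1 CPM, Cavin2 at 1314 and 479, and Icam1 at 327 and 1256. Spp1, Lrg1 and Ifitm1 had higher log2 ratios in mural cells (4.78, 4.59 and 3.81) than in vessel cells (4.12, 2.39 and 2.38). Within cluster 0, Lrg1 was at 254 and 854 CPM. Nt5e was higher in vessel cells and lower in fibroblasts, at 26.8 and 4.97 CPM. By the same rule, 9.99% of the genes counted in vessel cells were called in either direction. In lymphatic cells 2.97% were called higher and 4.19% lower (7.17% in all), in mural cells 6.62% and 7.7% (14.3%), and in fibroblasts 7.88% and 9.99% (17.9%).

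The genes that set vessel cells apart from all other cells were also partly different in the libraries. Of the 15 genes with the highest ratio of vessel cells to other kept cells, 8 were in both lists: Flt1, Cd93, Ptprb, Plvap, Adgrf5, Pecam1, Cdh5 and Esam, of which Flt1, Plvap, Pecam1 and Cdh5 were used by the gate. In Ctrl the others were Fabp4, Podxl, Adgrl4, Cyyr1, Cd36, Mmrn2 and Epas1. In AD they were Tmem252, Sele, Selp, Csf3, Aqp1, Gpihbp1 and Vwf. Tmem252, Sele and Selp led the AD list, with log2 ratios of vessel cells over other cells of 6.37, 6.32 and 6.23 in AD and 4.26, 3.61 and 4.04 in Ctrl.

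Within clusters, the main differences other than Cxcl12 and Icam1 were followed for genes that were not among the 10 leading genes of a cluster at the coarser resolution. Rbp7 was at 561 CPM in Ctrl and 2.93 in AD in cluster 0, at 48.2 and 0 in cluster 1, and at 132 and 11.1 in cluster 2. Tmem252 was higher in AD in all 3, at 308 and 1860.4, 159 and 1949, and 40.3 and 1269 CPM. Csf3 had 16 UMIs in Ctrl and 795 in AD in cluster 0 and 3 and 117 in cluster 2, while in cluster 1 its 18 and 56 UMIs came from 4 cells (of 34) in Ctrl and 2 (of 12) in AD. Car4 was at 268 and 300.5 CPM in AD cells of clusters 0 and 2 and at 261 CPM in the AD cells of cluster 3, where 3 of 11 cells had it, and had no UMI in cluster 1 of either library. Kdr, a gate gene, was lower in AD in cluster 0 (978 and 341 CPM) and cluster 2 (535 and 256) and stood at 57.8 and 97.4 in cluster 1, on 12 and 10 UMIs. Cd36 was lower in cluster 0 (1203 and 250.1), higher in cluster 1 (323 and 1354) and under the threshold in cluster 2 (610.0 and 746). Ctla2a, an inhibitor of cathepsins, was higher in AD in all 3, at 913 and 2279, 14.4 and 672, and 368 and 3656 CPM, and was chosen for mention after its values were seen.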

How the data were processed

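Mouse dorsal skin was profiled with 10x 3′ libraries, 1 per condition. For each, the authors deposited UMI counts per gene and barcode, made by Cell Ranger on mm10 without normalization. The matrix headers name version 5.0.0, the series' methods 6.0.0, and the submitters' processing notes 3.1.0 with Seurat 5.0 (4.3.0 in the methods). The total was 125184653 UMIs over 12598 barcodes in Ctrl and 76106062 over 8778 in AD. Reads and the study's own cell names were not used here. The labels and the methods name different collagenases for the digestion.

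Barcodes outside 200 to 6000 genes, or with over 10% of UMIs from mitochondrial genes, were dropped. Members, gene lists and comparisons were chosen with earlier results of these data known. Comparison cells were gated as lymphatic (3 UMIs and 2 genes of Mmrn1, Prox1, Ccl21a and Flt4), mural (the same for Rgs5, Notch3, Cspg4, Myh11, Kcnj8 and Pdgfrb, without Pecam1 and Cdh5) and fibroblast (Pdgfra and at least 3 UMIs of Col1a1, Col1a2 and Dcn, without Pecam1 and Cdh5), all without Ptprc and the first 2 without Pdgfra. CPM were summed over cells, 10 CPM was added for ratios, and 95% intervals were exact Poisson (levels), Clopper-Pearson (shares) and conditional binomial (ratios). With 1 library per condition no p-value was computed. Named genes were the 5 highest and lowest ratios at 100 CPM outside the gate, the 12 highest and lowest among genes enriched in vessel cells, the 15 most enriched genes per library, and genes of the lists; 1 gene that this rule names is not reported here, Ctla2a was named after its values were seen, and within-cluster genes were picked by hand.

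Members were clustered with scanpy 1.11.5 and leidenalg 0.10.2 (1000 variable genes, 15 components, 15 neighbours, seed 0, resolution 0.5 or 1), and a marker counted when 10% of a cluster's cells had it at 2 times the level of the other members. Scrublet marked 395 of 11399 Ctrl cells, 2 of them members, and 0 of 8179 AD cells, so it had not worked in AD and no doublets were removed. Python 3.11.15, numpy 2.4.6, scipy 1.17.1, pandas 2.3.3 and matplotlib 3.10.9 were used, and the scripts were tested on simulated data. Alternatives were other gates, cell filters, scalings, thresholds and clusters left out.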

Additional observations from a re-analysis of the deposited data

How the results depend on the processing

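The 143 genes called higher and 252 called lower in AD became 429 and 675 with cells thinned to 1000 UMIs, 248 and 533 with no minimum CPM, and 51 and 56 at 200 CPM, and kept within 1.5 times under the other 13 alternatives, 5 of which were added after the data were seen. Centring on the median ratio gave 185 higher and 179 lower, against 143 and 252. The Ctrl and AD members numbered 82 and 84 where both gates had to be passed, 81 and 81 without clusters 2 and 3, and 47 and 69 in cluster 0 alone. The median log2 ratio of the arterial list, -0.79, was -0.34 after thinning and -0.38 in cluster 0 alone, and that of the venous list, 0.99, was 0.62 after thinning and 2.13 at 200 CPM, so both kept their sign under all 16 alternatives. Krt5 turned from -3.94 to 0.11 over all deposited barcodes, where cells over the mitochondrial and gene limits enter. Of 58 single genes under 16 alternatives, 733 of 928 log2 ratios stayed within the counting interval of the reported value, 194 moved outside it and 1 changed sign after having been called. Spp1 (0.95 without cluster 3, from 4.12), Ifitm1 (0.76, from 2.38), Angpt2 (0.58, from 1.26) and Cfd (0.88 without its richest cell, from 3.76) lost their call. After thinning, Podxl (-0.96, from -1.43), Cav2 (-0.63, from -1.28) and Ptprb (-0.49, from -1.04) also lost it. Cavin1 (-0.97, from -1.09) lost it when centred on the median ratio, and Kdr (-0.82, from -1.09) with the mean of per-cell CPM. The alternative without doublets was not used, since the caller had not worked in AD. No paired analysis was possible because each condition has 1 library. Depth limits the size of ratios with few UMIs in a library: Rbp7, Car4 and Sectm1b rest on 4, 3 and 1 UMIs on their lower side, and the 95% interval of the raw log2 ratio was -8.19 to -4.92 for Rbp7 and 3.94 to 11.76 for Sectm1b, so their place in a ranking is imprecise.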
